A study of Mus musculus with 6 samples.

Results

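The Kruppel-like factors (Klf genes) encode a family of zinc finger transcription factors, and 10 of them (Klf2, Klf3, Klf4, Klf5, Klf6, Klf7, Klf9, Klf10, Klf13 and Klf15) are described here among the 22706 genes measured in mouse muscle stem cells (MuSCs). The members were taken from a list of gene symbols, and all 10 had a row in the data. RNA-seq was done on MuSCs sorted by flow cytometry straight from muscle, in 6 libraries of 3 groups with 2 libraries each. Control mice were wild type. Mice of the mdx group carried the mdx mutation of the dystrophin gene, a model of Duchenne muscular dystrophy. Sirt6mKO/mdx mice carried the same mutation together with a deletion of Sirt6, a histone deacetylase of the sirtuin family, made by a constitutive Cre recombinase under the Pax7 promoter (Pax7-ICN) on floxed Sirt6, which acts throughout the muscle lineage and from before birth. The labels give the strain of all libraries as C57BL/6 and no age, sex, litter or treatment, and the methods name the mdx stock as C57BL/10ScSn-Dmdmdx/J. The labels do not say whether the libraries of a group came from separate animals, so p-values measure the spread between these libraries.

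Kruppel-like factors bind GC-rich and CACCC motifs through zinc fingers at their carboxyl end, and differ in the other part of the protein, which recruits activators or repressors. Klf2, Klf4, Klf5, Klf6 and Klf7 are mostly activators, Klf3 binds the corepressor CtBP, Klf9, Klf10 and Klf13 bind the corepressor Sin3a, and Klf15 stands outside these groups. Several members are early response genes that are induced within hours by serum, stress or hormones, and Klf2 and Klf4 are known for holding cells in quiescence or for opposing proliferation in some cell types.

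Before the results, the labels were checked against the values, which are normalized read counts throughout (read counts per gene divided by 1 factor per library). Approximate depth was 4397765 and 7215802 reads for control, 9744324 and 7218851 for mdx and 6219844 and 4771759 for Sirt6mKO/mdx. Both Sirt6mKO/mdx libraries were therefore shallower than both mdx libraries. A member rested on 15 to 5468 reads in a library. Sirt6 was at 41 and 32 for control, 33 and 40 for mdx and 37 and 30 for Sirt6mKO/mdx, so its loss was not detectable per gene. The floxed allele removes only part of the gene, and values per gene also count the rest. By genotyping PCR, the study describes an efficient deletion in MuSCs of Sirt6mKO mice without the mdx mutation. It also measured Sirt6 by RT-qPCR in MuSCs of the 3 groups. The libraries labelled Sirt6mKO/mdx are the third group below, and directions given for that group rest on its label. The control libraries stood apart by sex-linked genes. Xist, the noncoding RNA of X inactivation, was at 16772 and 12950 in control against 7 to 34 elsewhere, and the Y-linked gene Ddx3y was at 3 and 8 against 1024 to 1767, although the methods give the mice of all 3 groups as male. In comparisons with control this difference and the genotype cannot be told apart. The MuSC marker Pax7 lay between 2167 and 3236 in all libraries, and Myf5 between 1669 and 3258.

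To show the sequences upstream of the genes that moved most, the 250 bases before the RefSeq start site are printed for 4 members (RefSeq, GRCm38.p6). Klf4, Klf6 and Klf9 were chosen because they passed the criteria in both comparisons with mdx, and Klf2 because it held the only match to a MEF2 site. Capitals mark matches, on either strand, to the cAMP response element (CRE) and to AP-1, TATA, CAAT, CArG and MEF2 motifs, which are described after the sequences. Klf4 held none of these.
Klf4, chr4:55532476-55532725, minus strand: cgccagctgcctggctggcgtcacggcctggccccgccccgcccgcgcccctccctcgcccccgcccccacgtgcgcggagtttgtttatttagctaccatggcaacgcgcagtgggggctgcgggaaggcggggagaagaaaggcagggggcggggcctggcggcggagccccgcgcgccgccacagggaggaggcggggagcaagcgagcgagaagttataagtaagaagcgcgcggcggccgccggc
Klf6, chr13:5861239-5861488, plus strand: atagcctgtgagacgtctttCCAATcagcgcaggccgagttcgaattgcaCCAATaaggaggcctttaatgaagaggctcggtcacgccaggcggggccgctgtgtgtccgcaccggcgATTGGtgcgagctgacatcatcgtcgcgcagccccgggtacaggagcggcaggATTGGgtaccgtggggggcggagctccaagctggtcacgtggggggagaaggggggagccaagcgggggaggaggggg
Klf9, chr19:23140976-23141225, plus strand: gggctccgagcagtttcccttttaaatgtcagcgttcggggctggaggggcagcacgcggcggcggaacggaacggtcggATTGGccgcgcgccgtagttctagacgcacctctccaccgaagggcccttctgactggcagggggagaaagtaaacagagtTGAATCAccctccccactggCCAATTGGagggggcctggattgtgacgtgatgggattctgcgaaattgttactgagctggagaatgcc
Klf2, chr8:72318812-72319061, plus strand: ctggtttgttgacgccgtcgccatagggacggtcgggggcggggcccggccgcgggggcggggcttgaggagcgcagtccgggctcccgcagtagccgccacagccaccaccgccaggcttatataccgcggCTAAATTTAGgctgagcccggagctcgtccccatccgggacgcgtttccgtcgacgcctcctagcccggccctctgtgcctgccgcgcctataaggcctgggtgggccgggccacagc
Of the 10 members, 8 had a promoter in this table, and Klf5 and Klf10 did not. The sequences were GC-rich. The GC content was 74% for Klf4, 71.2% for Klf2, 64.8% for Klf6 and 59.6% for Klf9, and all 8 members lay above the median of 52% over 27025 promoters.

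Of the motifs searched on both strands, the GC box (GGGCGG) was found in 7 of the 8 member promoters, all but Klf9, and in 32.9% of all promoters. The CACCC element, to which the family itself binds, was found in 6 of 8 (Klf2, Klf3, Klf7, Klf9, Klf13 and Klf15) and in 51.3% of all promoters. A CAAT box (CCAAT) was found in Klf6, Klf9, Klf13 and Klf15, with 4 copies in Klf6 and copies on both strands that overlap in Klf9, and in 34.5% of all promoters. The AP-1 motif (TGANTCA) was found only in Klf9 among the 8, at position -89 from the start, against 6.87% of all promoters. The MEF2 motif was found only in Klf2, at position -118, against 3.01% of all promoters. Among the 8 promoters none held the full CRE (TGACGTCA), which was in 1.62% of all promoters. The TATA motif (TATAAA) was in 13% of all promoters and the CArG box in 1.4%, and neither was in any of the 8. A match is a description of these letters and not a bound site, and a window without a match says nothing about the factor.

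The levels of the members were compared with each other per kilobase of exon (GENCODE, GRCm38). Klf6 stood first in every group, with 773 per kilobase in control (583 and 962), 239 in mdx libraries (234 and 244) and 896 in the third group (538 and 1253). In control it was followed by Klf9 at 350, Klf4 at 341, Klf13 at 119, Klf10 at 74.9, Klf15 at 46.4, Klf7 at 37.6, Klf5 at 28.7, Klf2 at 14.3 and Klf3 at 13.7. Neighbours whose libraries overlapped, and whose order is therefore not set, were Klf9 and Klf4, Klf13 and Klf10, Klf15 and Klf7, Klf7 and Klf5, and Klf2 and Klf3.

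The order was another one in mdx. Klf10 stood next to Klf6 at 146 per kilobase, followed by Klf9 at 119, Klf4 at 43.3, Klf13 at 36.6, Klf3 at 28.9, Klf7 at 26.7, Klf15 at 24.2, Klf5 at 11.6 and Klf2 at 7.85. Here the libraries of Klf10 and Klf9, Klf4 and Klf13, Klf3 and Klf7, Klf7 and Klf15, and Klf5 and Klf2 overlapped. In the libraries labelled Sirt6mKO/mdx the order after Klf6 was Klf9 at 246, Klf4 at 197, Klf10 at 140, Klf13 at 56.0, Klf15 at 49.3, Klf7 at 36.9, Klf2 at 24.1, Klf5 at 18.1 and Klf3 at 14.4, and only Klf15 overlapped its neighbours Klf13 and Klf7.

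The sum of the 10 members per kilobase was 1776 and 1821 for control, 701 and 667 for mdx and 1266 and 2090 for the third group. The mdx libraries were therefore the lowest, without overlap with either other group. Klf4 made up 15.9% and 22.2% of this sum in the control libraries, 5.95% to 6.69% in mdx and 10.4% to 14.0% in the third group. Klf10 made up 4.09% to 4.24% in control, 17.2% to 25.4% in mdx and 6.88% to 10.8% in the third group. The share of Klf4 in the control libraries lay above, and that of Klf10 below, the shares in all 4 other libraries.

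**Figure D1:**
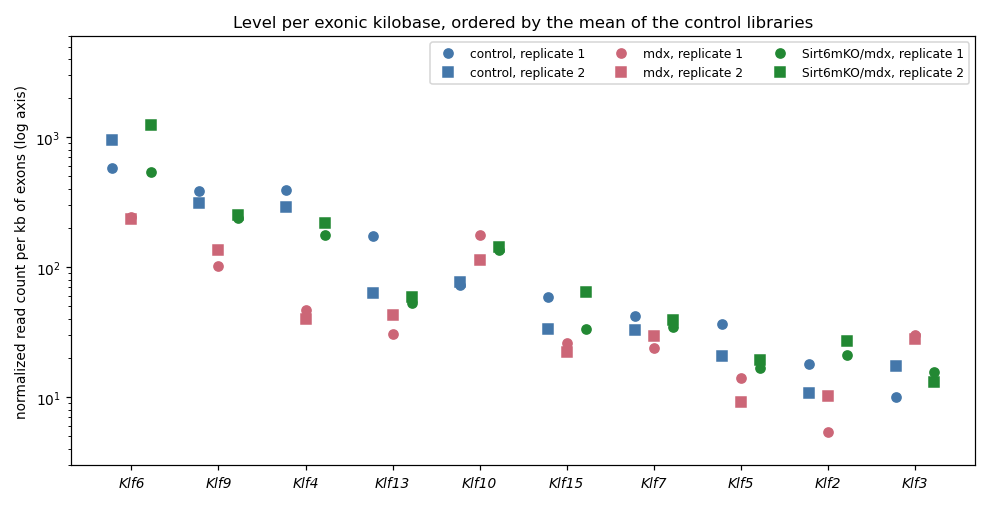
Normalized read count per kilobase of exon (log axis) of the 10 Klf genes in the 3 groups, with circles for replicate 1 and squares for replicate 2, ordered by the mean of the control libraries. Klf6 was highest in each group, with a mean of 239 per kilobase in mdx against 773 in control and 896 in Sirt6mKO/mdx.

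How MuSCs of dystrophic muscle differ from those of wild type muscle was asked by setting mdx against control. Of the 10 members, Klf4, Klf6, Klf9 and Klf13 were called lower and Klf3 was called higher, where a call needs an adjusted p (limma, Benjamini-Hochberg over 15915 tested genes) of at most 0.05 and an absolute log2 fold change of at least 1. Over all tested genes 14.2% were called, 7.34% lower and 6.89% higher. No member had overlapping values in the groups, with 8 lower and 2 higher in mdx, against 57% of all tested genes without overlap, 28.3% lower and 28.7% higher. The median log2 fold change of the members was -1.07, with a range from -2.96 to 1.12, and the median of all tested genes was 0.0007. The samples were bulk RNA, in which fewer cells with a transcript and less transcript per cell cannot be told apart.

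**Figure D2:**
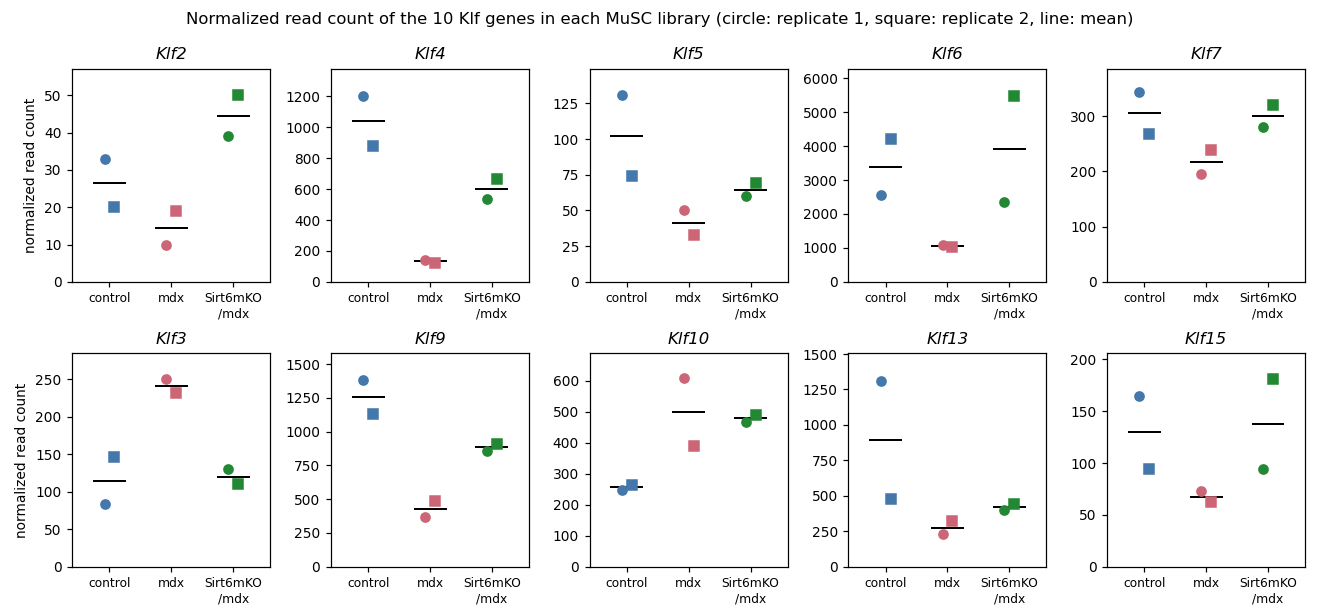
Normalized read count of each of the 10 Klf genes in the 6 libraries, 1 panel per gene with an axis from 0, with points for libraries and a line for the mean of each group of 2. In mdx, Klf4 sat at 143 and 121 below 881 to 1201 in control and 539 to 663 in Sirt6mKO/mdx, and Klf3 sat at 250 and 232 above all 4 other libraries.

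Klf4 (ENSMUSG00000003032; chromosome 4, 55527143 to 55532466, minus strand), a factor of stem cell reprogramming and of epithelial and endothelial differentiation, had the largest difference of the family. Its value was 1201 and 881 for control, 143 and 121 for mdx and 539 and 663 for the third group, and the 3 groups did not overlap. The group means were 1041 ± 226, 132 ± 15.6 and 601 ± 87.7 (SD, n = 2). In mdx Klf4 fell by 2.96 on the log2 scale (SE 0.26, 95% interval -3.51 to -2.41, adjusted p 2.5e-06), a 7.77-fold lower level, and of the 15915 tested genes 215 had a lower fold change. No single library carried this value, which ran from -3.18 to -2.73 as each library was left out.

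Klf6 (ENSMUSG00000000078; chromosome 13, 5861489 to 5870393, plus strand), an activator that is induced by tissue injury, was the most abundant member. It was at 2556 and 4216 for control, 1071 and 1027 for mdx and 2359 and 5494 for the third group. Both mdx libraries lay below all others, and the third group spanned the control values. Klf6 fell by 1.65 in mdx on the log2 scale (SE 0.37, 95% interval -2.43 to -0.86, adjusted p 0.007). The call was lost without control replicate 2 (-1.28, adjusted p 0.0718), without mdx replicate 1 (-1.68, adjusted p 0.0708) and without mdx replicate 2 (-1.62, adjusted p 0.0742).

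The other activators, Klf2, Klf5 and Klf7, were not called in mdx. Klf5 (ENSMUSG00000005148; chromosome 14, 99298691 to 99313405, plus strand), which acts in smooth muscle and intestinal epithelium, was at 131 and 74 for control, 50 and 33 for mdx and 60 and 69 for the third group. Both control libraries lay above all 4 others. Its log2 fold change in mdx was -1.26 (SE 0.43, 95% interval -2.17 to -0.34, adjusted p 0.0589), and it was called without control replicate 2 (-1.66, adjusted p 0.0385) and with a robust prior variance (-1.26, adjusted p 0.0478). It was at -0.85 without control replicate 1 (adjusted p 0.318) and at -0.96 without mdx replicate 2 (adjusted p 0.276).

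Klf2 (ENSMUSG00000055148; chromosome 8, 72319033 to 72321656, plus strand), known from the response of endothelium to flow and from T cell quiescence, had the fewest reads. It was at 33 and 20 for control, 10 and 19 for mdx and 39 and 50 for the third group. The order of the groups was the same in every library, although the lower control and the higher mdx library differed by 1 unit. Its log2 fold change in mdx was -0.85, with an interval from -2.13 to 0.43. It was at -0.42 without mdx replicate 1 and at -1.28 without mdx replicate 2.

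Klf7 (ENSMUSG00000025959; chromosome 1, 64029447 to 64122282, minus strand), best known from neurons, had the smallest fold change of the members in mdx against control. Klf7 values were 344 and 268 for control, 195 and 239 for mdx and 280 and 320 for the third group. The log2 fold change in mdx was -0.49 (95% interval -1.06 to 0.08, adjusted p 0.23). The antisense lincRNA Gm26649, which had no row in the data, covers 39.3% of the exonic bases of Klf7. The use of strand in counting was not stated. Reads of this RNA may therefore be part of the Klf7 value, or shared reads may have been left out as reads on several genes.

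Klf3 (ENSMUSG00000029178; chromosome 5, 64803523 to 64830129, plus strand), the CtBP-binding repressor, was the only member called higher in mdx. Its values were 83 and 146 for control, 250 and 232 for mdx and 130 and 110 for the third group. Both mdx libraries lay above all others, and the third group lay within the control values. The log2 fold change in mdx was 1.12 (SE 0.33, 95% interval 0.42 to 1.82, adjusted p 0.0289). The call was lost without control replicate 1 (0.72, adjusted p 0.195), either mdx library (1.07 and 1.18, adjusted p 0.2 and 0.128) or Sirt6mKO/mdx replicate 2 (1.12, adjusted p 0.0595). The antisense gene Gm20033, which covers 3.2% of the exonic bases of Klf3, was at 6 to 39.

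Among the Sin3a-binding members, Klf9 (ENSMUSG00000033863; chromosome 19, 23141226 to 23166911, plus strand) is induced by glucocorticoid and thyroid hormone. Its values were 1385 and 1130 for control, 367 and 490 for mdx and 860 and 907 for the third group, again 3 groups without overlap. Klf9 fell by 1.56 in mdx on the log2 scale (SE 0.25, 95% interval -2.09 to -1.03, adjusted p 6.5e-04). This call held without each of the 6 libraries, with values from -1.77 to -1.35. With 1 prior variance for all genes it was lost (-1.56, adjusted p 0.059).

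Klf13 (ENSMUSG00000052040; chromosome 7, 63886347 to 63938915, minus strand), first described as an activator of the chemokine gene Ccl5 in T cells, differed between the control libraries. It was at 1313 and 474 for control, 229 and 323 for mdx and 401 and 443 for the third group. Even the lower control library lay above all 4 others. Klf13 fell by 1.53 in mdx on the log2 scale (SE 0.37, 95% interval -2.32 to -0.75, adjusted p 0.0107). Without control replicate 1 the value was -0.80 (adjusted p 0.123), without control replicate 2 it was -2.27, and the call was also lost without mdx replicate 1 (-1.29, adjusted p 0.159) or mdx replicate 2 (-1.78, adjusted p 0.0539).

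Klf10 (ENSMUSG00000037465; chromosome 15, 38294413 to 38300707, minus strand), the TGF-beta-inducible early gene, went the other way from its relatives Klf9 and Klf13. Its values were 248 and 264 for control, 608 and 391 for mdx and 467 and 491 for the third group. Both control libraries lay below all others. The log2 fold change in mdx was 0.93 (SE 0.27, 95% interval 0.36 to 1.49), with an adjusted p of 0.0264 but a fold change of 1.9, short of the minimum for a call. Without mdx replicate 2 it was called (1.25, adjusted p 0.0313), and without mdx replicate 1 it was at 0.61 (adjusted p 0.301).

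Klf15 (ENSMUSG00000030087; chromosome 6, 90462576 to 90475238, plus strand), a glucocorticoid-induced regulator of amino acid and lipid metabolism in muscle, was at 165 and 94 for control, 73 and 62 for mdx and 94 and 181 for the third group. The mdx libraries were lowest, and the other groups overlapped. The log2 fold change in mdx was -0.88 (SE 0.40, 95% interval -1.72 to -0.03, adjusted p 0.145). It was at -0.48 without control replicate 1 and at -1.28 without control replicate 2.

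The third group was set against mdx to ask what differs in dystrophic MuSCs with the Sirt6 deletion. According to the study, Sirt6mKO mice came from crosses with Pax7-ICN and ROSA26-YFP reporter mice. MuSCs were sorted by surface markers or by a reporter, and which was used for each library was not stated. In this comparison the deletion cannot be told apart from the Cre, the reporter or the sort. Klf4, Klf6 and Klf9 were called higher and no member was called lower, against 8.17% of all tested genes called, 5.62% higher and 2.54% lower. An unadjusted p under 0.05 was reached by 6 members and by 4004 of the 15915 tested genes. Libraries did not overlap for 8 members that were higher and 1, Klf3, that was lower, against 28.8% and 27.2% of all tested genes and 56% in either direction, and Klf10 overlapped. The median log2 fold change of the members was 0.80, with a range from -1.0 to 2.18, and that of all tested genes was 0.02. Since this comparison shares the mdx libraries with the comparison above, an unusual value in an mdx library moves both in opposite directions, and the values are given side by side without a test of their relation.

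**Figure D3:**
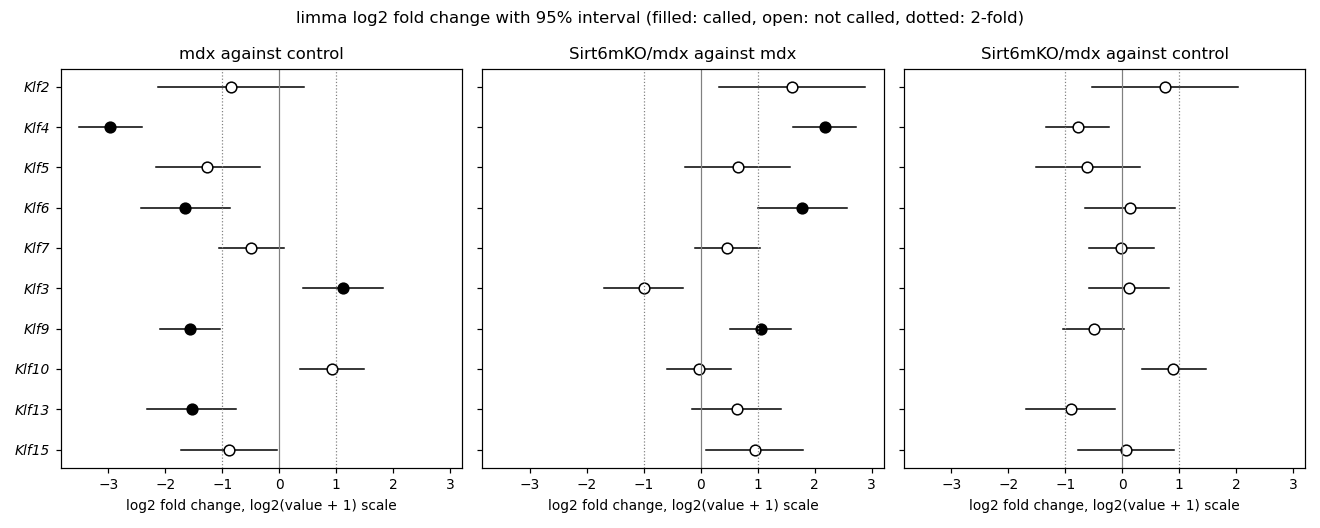
Log2 fold change on the log2(value + 1) scale of the 10 Klf genes in the 3 comparisons, with points for the limma estimate, lines for its 95% interval, and called genes marked. Klf4 lay at -2.96 in mdx against control, at 2.18 in Sirt6mKO/mdx against mdx and at -0.78 in Sirt6mKO/mdx against control.

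Klf4 again had the largest difference of the members. It was 4.52-fold higher than in mdx, a log2 fold change of 2.18 (SE 0.26, 95% interval 1.62 to 2.73, adjusted p 1.1e-04), at the percentile 96.1 of all tested genes. Leaving out any library gave 2.03 to 2.32, and the call held in each case. With 1 prior variance for all genes the Klf4 call was lost (2.18, adjusted p 0.0697), as was every call of this comparison. Klf6 was 3.43-fold higher, a log2 fold change of 1.78 (SE 0.37, 95% interval 1.0 to 2.56, adjusted p 0.00773). This value rested on the libraries used, since it was 1.17 (adjusted p 0.16) without Sirt6mKO/mdx replicate 2 and 2.39 without Sirt6mKO/mdx replicate 1, and the call was lost without either mdx library (1.81 and 1.75, adjusted p 0.0776 and 0.103).

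Klf9 was 2.08-fold higher, a log2 fold change of 1.06 (SE 0.25, 95% interval 0.52 to 1.59, adjusted p 0.0171). It lay close to the minimum fold change, and the call was lost without any 1 of the 4 libraries compared, with values of 0.85 to 1.26 and adjusted p of 0.0579 to 0.177. Klf3 had a log2 fold change of -1.0 (SE 0.33, 95% interval -1.70 to -0.31, adjusted p 0.0688). It was called lower without control replicate 1 (-1.0, adjusted p 0.0296) or control replicate 2 (-1.0, adjusted p 0.0387), and when only the groups compared were fitted (-1.0, adjusted p 0.0297).

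The other members were not called. For Klf2 the log2 fold change was 1.61 (95% interval 0.32 to 2.89, adjusted p 0.11), the third largest of the family, from 25 and 27 reads against 15 and 24. For Klf15 it was 0.95 (0.10 to 1.79, adjusted p 0.15), and without Sirt6mKO/mdx replicate 2 it was 0.48. For Klf5, Klf13 and Klf7 it was 0.65, 0.63 and 0.47, with intervals that included 0. Klf10 did not move with the others, at -0.03 with an interval from -0.59 to 0.54, and its libraries in both groups lay between 391 and 608.

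**Figure D4:**
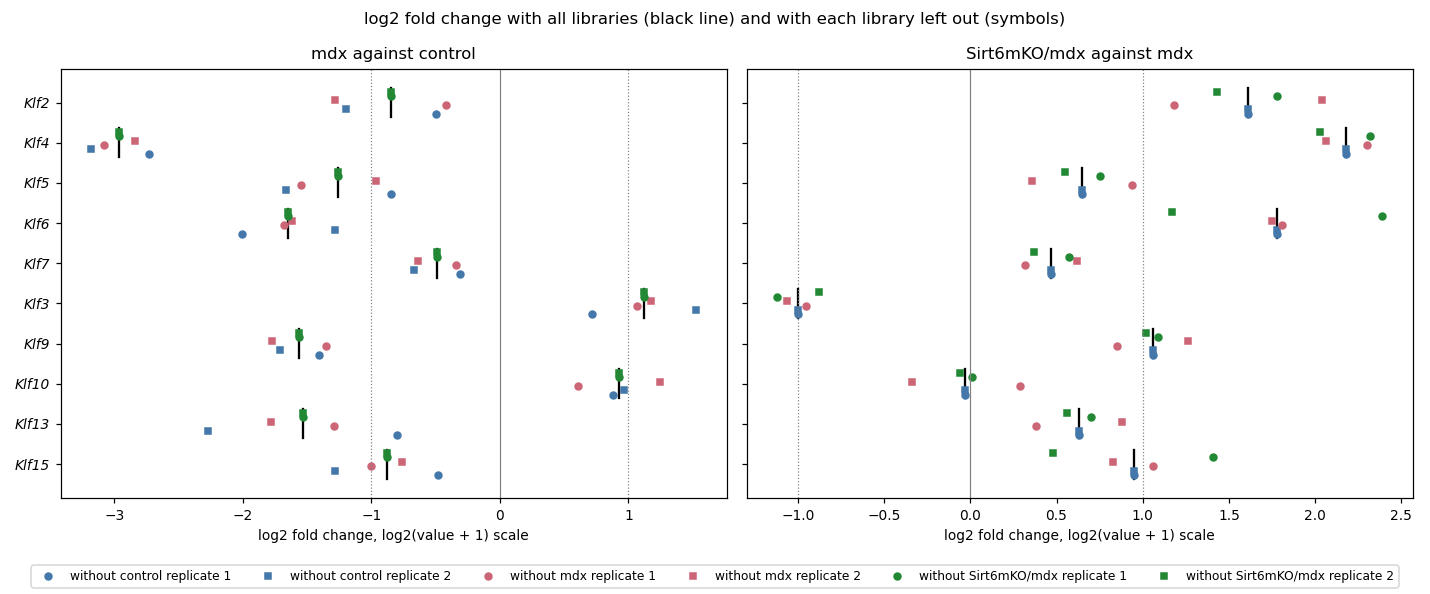
Log2 fold change on the log2(value + 1) scale of the 10 Klf genes in mdx against control (left) and Sirt6mKO/mdx against mdx (right), with a black line for all 6 libraries and a symbol for each fit without 1 library. Klf4 kept a narrow spread, from -3.18 to -2.73 and from 2.03 to 2.32, while Klf13 ran from -2.27 to -0.80 on the left and Klf6 from 1.17 to 2.39 on the right.

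These calls depend on how libraries were scaled. The 10 most abundant genes took 30.0% and 32.6% of the summed values in the third group and 11.7% to 22.9% in the others. When libraries were scaled to the same total, the median of all tested genes in that group moved to -0.59 against mdx and against control, and calls over all genes to 478 higher and 2937 lower against mdx, in place of 895 and 405. On that scale Klf4 and Klf6 stayed higher than in mdx, at 1.55 and 1.15, Klf9 was at 0.43 (adjusted p 0.306), and Klf3 was called lower at -1.63 (adjusted p 0.00595), so 2 members were called higher and 1 lower. Klf7 turned to -0.16. These values are to be read against the shifted median.

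Against control, no member was called in the third group in limma, where 7.87% of all tested genes were called, 5.19% higher and 2.68% lower, and 3 of 10 members had an unadjusted p under 0.05, as did 3828 of the 15915 tested genes. The members' median log2 fold change was 0.02, with a range from -0.90 to 0.90, and that of all tested genes was 0.01. Libraries did not overlap for Klf2 and Klf10, which were higher, and for Klf4, Klf5, Klf9 and Klf13, which were lower, against 26.3% and 25.3% of all tested genes and 51.6% in either direction. Klf10 had a log2 fold change of 0.90 (SE 0.27, 95% interval 0.34 to 1.47), with an adjusted p of 0.0464 but a fold change of 1.87, short of a call. In mdx the fold change of Klf10 was 1.9, against the same control libraries.

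Klf4 remained between the other groups, at -0.78 against control (SE 0.26, 95% interval -1.33 to -0.23, adjusted p 0.0743). Klf13 was at -0.90 (95% interval -1.69 to -0.12, adjusted p 0.147), and without control replicate 2 it was called lower at -1.64 (adjusted p 0.0139), while without control replicate 1 it was at -0.17 (adjusted p 0.776). Klf9 was at -0.50 (95% interval -1.03 to 0.03). For Klf6, Klf3, Klf15 and Klf7 the estimates were 0.13, 0.12, 0.07 and -0.02, with intervals of -0.65 to 0.92, -0.58 to 0.82, -0.78 to 0.91 and -0.59 to 0.55, so a difference from control of up to about these bounds was not excluded. With scaling to the same total, Klf4, Klf9 and Klf13 were called lower than control, at -1.39, -1.11 and -1.51 (adjusted p 0.00374, 0.0144 and 0.00769), and Klf6, Klf3 and Klf15 turned to -0.47, -0.48 and -0.53.

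**Figure D5:**
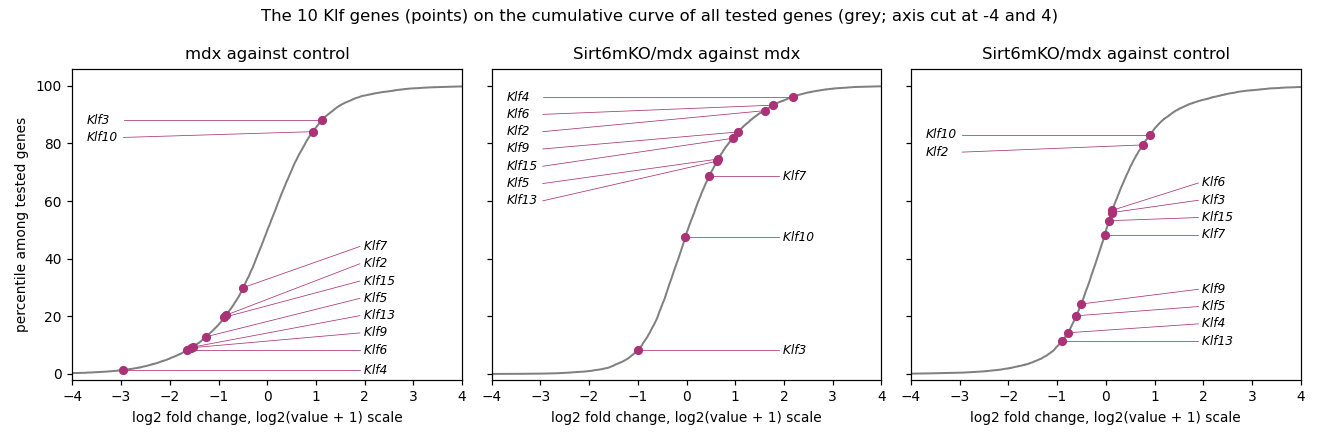
The 10 Klf genes (points) on the cumulative curve of the log2 fold changes of all 15915 tested genes in the 3 comparisons, with the percentile among tested genes on the vertical axis. Klf4 lay at the percentile 1.35 in mdx against control and at 96.1 in Sirt6mKO/mdx against mdx, and the 10 genes lay between 11.4 and 83 in Sirt6mKO/mdx against control.

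The rest of the Klf genes and the related Sp genes, which bind the same GC-rich motifs, served as the comparison within the superfamily. Of 16 listed genes 12 had a row, and 10 passed the minimum mean of 5 (Klf14 and Sp9 did not). No gene of these 10 was called in any of the 3 comparisons, while an unadjusted p under 0.05 was reached by 2, 2 and 1 of them in limma. Their median log2 fold change was -0.17 in mdx against control, 0.04 in the third group against mdx and -0.003 against control.

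Klf16, a repressor closest to Klf9 and Klf13, was at 110 and 73 for control, 29 and 58 for mdx and 88 and 97 for the third group. The mdx libraries were lowest here too, with a log2 fold change of -1.11 in mdx (adjusted p 0.0914) and of 1.15 in the third group against mdx (adjusted p 0.108). Sp3 was at 565 and 632 for control, 1200 and 1014 for mdx and 730 and 808 for the third group. The mdx libraries were highest, as for Klf3, and its log2 fold change of 0.88 in mdx (adjusted p 0.0205) fell short of a call by its size. Sp1, the founding member of the Sp genes, was at 1228 and 1695 for control, 1195 and 924 for mdx and 766 and 804 for the third group, at -0.88 against control in the third group (adjusted p 0.0469). Klf11, the closest relative of Klf10, was at 201 and 190 for control, 284 and 189 for mdx and 229 and 303 for the third group, and its libraries overlapped between mdx and control. Sp4 lay between 211 and 316 and Sp2 between 54 and 99 in all libraries. Klf1, Klf8, Klf12 and Sp7 did not exceed 21 in any library.

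Cofactors and degradation enzymes of the family were counted next. Of 14 genes, among them Ctbp1, Sin3a, Ep300 and Fbxw7, 1 was called in mdx against control and none in the other comparisons. The called gene was Wwp1, a ubiquitin ligase that acts on Klf2 and Klf5, at 196 and 261 in control and 497 and 423 in mdx (log2 fold change 1.02, adjusted p 0.0152). The median of the list was -0.31 in mdx against control and 0.09 and -0.10 in the third group against mdx and control.

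Of 22 genes that act upstream of the family, kinases and transcription factors of the ERK5, SRF, FOXO, glucocorticoid and TGF-beta pathways, 3 were called lower in mdx and none higher, a number near the 14.2% of all tested genes that were called. Foxo3 fell by 1.98 (adjusted p 1.8e-04), from 1879 and 1164 in control to 329 and 426 in mdx. Mef2d, a factor that binds MEF2 sites, fell by 1.39 (adjusted p 0.00181), and Foxo1 fell by 1.06 (adjusted p 0.00749). Only Foxo3 was called higher in the third group against mdx, at 1.08 (adjusted p 0.0231). Against control, Foxo1 and Elk3 were called lower there, at -1.32 and -1.28 (adjusted p 0.00314 and 0.0326). The glucocorticoid receptor gene Nr3c1 was at 1020 and 1360 for control, 1461 and 1271 for mdx and 755 and 830 for the third group.

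Since Klf9 and Klf15 are themselves induced by glucocorticoids, other genes known to respond to these hormones were counted. Of 15 with a test, mdx had 10 called lower and 1 higher, with a median log2 fold change of -1.57. Over all tested genes 7.34% were called lower and 6.89% higher. In the third group against mdx 9 were called higher and none lower, with a median of 1.83, against 5.62% and 2.54% of all tested genes. Zbtb16, a zinc finger repressor, was at 2133 and 775 for control, 39 and 120 for mdx and 472 and 1009 for the third group, and Errfi1, an inhibitor of the EGF receptor, was at 7430 and 9226, 881 and 770, and 3058 and 3885. The mdx libraries were lowest for both, as they were for Klf9 and Klf15. Pdk4 and Sgk1 fell by 2.58 and 2.39 in mdx (adjusted p 2.1e-05 and 3.0e-05). Cdkn1c, a cell cycle inhibitor, was the gene that went the other way, at 3.48 in mdx (adjusted p 7.6e-05). Fkbp5 was not called in mdx (-0.90, adjusted p 0.179). Against control, 1 was called higher and 2 lower in the third group, with a median of -0.04. The part of glucocorticoids in the differences of Klf9 and Klf15 was not tested.

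Genes described elsewhere as targets of Klf factors did not move in a common direction. The list pools targets of several members, which themselves moved in both directions, so it cannot show whether a member acted on them. A link between a member and a listed gene was not tested. Of 18 with a test, mdx had 4 called higher and 5 lower than control, with a median of -0.28, and 3 were called in each direction in the third group against mdx, with a median of 0.20. Smad7, an inhibitor of TGF-beta signalling, was at 272 and 225 for control, 54 and 68 for mdx and 277 and 281 for the third group. Cdkn1a, which encodes the cell cycle inhibitor p21 and is activated by Klf4 and Klf6, was at 952 and 531, 206 and 178, and 449 and 413. Both were lowest in mdx without overlap, with log2 fold changes of -2.01 and -1.89 there (adjusted p 2.9e-04 and 4.2e-04) and of 2.18 and 1.16 in the third group against mdx (adjusted p 2.8e-04 and 0.0208). Ccnd1, which encodes cyclin D1, was at 352 and 851 for control, 930 and 1217 for mdx and 207 and 251 for the third group, where it fell by 2.22 against mdx (adjusted p 9.4e-04). Lgals3, Myog, Pdgfa and Col1a1 rose in mdx, by 3.22, 2.31, 2.08 and 1.40, and the last 2 fell by 1.22 and 1.08 in the third group against mdx. Plaur fell by 2.11 in mdx and rose by 1.59 in the third group against mdx. Against control, Lgals3 and Myog were called higher in the third group, and genes called lower included Eng and Ccnd1.

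Other genes moved with the members. Of 28 immediate early and dissociation response genes, such as Fos, Egr1 and Atf3, 27 were called lower in mdx against control, with a median log2 fold change of -2.78, and 28 were called higher in the third group against mdx, with a median of 2.66. Their median value was 3047.5 and 2971.5 for control, 432 and 436.5 for mdx and 2658.5 and 3186 in the third group, and no gene of the list was at 0. Rhob was the exception in mdx, at -0.79 (adjusted p 0.0734). Against control, 1 was called higher and 3 lower in the third group. Cells were sorted after enzymatic digestion of muscle. The part of this response in the differences of the Klf genes was not tested.

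Markers of other cell types were set beside the members. Of 12 endothelial genes 9 were tested, and Kdr and Pecam1 were called lower in mdx and none in the third group against mdx. Their summed level was 969 and 871 for control, 475 and 497 for mdx and 685 and 704 for the third group, of which Tek made up 348 to 669. Cldn5 and Sox18 were at 0 in both control libraries, and Cdh5 was at 2 to 30. Of 10 genes of the muscle fibre, 5 were called lower in mdx, and 4 higher in the third group against mdx, with medians of -1.40 and 1.20. Their summed level was 20966 and 42704 for control, 15529 and 12527 for mdx and 35552 and 25477 for the third group, most of it Ttn, and none was at 0. According to the methods, cells with Sca1, CD45 or CD31 on their surface, markers of stromal cells, leukocytes and endothelium, were depleted before the sort. The part of these RNAs in the values of Klf2, Klf4 and Klf15 was not tested.

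Among the remaining marker lists, the sums of leukocyte and erythroid genes were also lowest in mdx without overlap, at low levels, and those of the others were not. The summed level of leukocyte genes was 147 and 179 for control, 133 and 110 for mdx and 248 and 237 for the third group. In mdx, 1 gene was called higher (Lyz2) and 1 lower (Cd68). Cd68 alone made up 86 and 88 of the control sums. Of the 8 tested leukocyte genes 4 were higher and 4 lower in mdx, with a median log2 fold change of 0.40, so the list was not lower as a whole. Smooth muscle and pericyte genes summed to 9596 and 9076, 7736 and 9025, and 4692 and 5013. Of these, 1 was called higher and 1 lower in mdx, and 1 lower in the third group against mdx. Fibro-adipogenic genes summed to 29310 and 35812, 46152 and 35843, and 26893 and 34076, with Col1a1 and Ly6a called higher in mdx. Schwann cell genes summed to at most 243. Erythroid genes summed to 56 and 19, 7 and 14, and 39 and 91, and of these Hbb-bs was called higher in the third group against mdx. Of 13 MuSC markers, Sdc4 and Chrdl2 were called lower in mdx, and Sdc4 was called higher in the third group against mdx. Against control, Sdc4, Chrdl2 and Heyl were called lower in the third group, as were the smooth muscle and pericyte genes Notch3 and Tagln, and the leukocyte gene Lyz2 was called higher.

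The genes outside the family whose values ran closest to those of each member were found by the Euclidean distance between log2 profiles over the 6 libraries, among 9651 genes with a mean of at least 50. For Klf4 they were Gem, Itpkc and Sesn2, at distances of 0.28 to 0.35, and for Klf9 they were Pprc1, Azin1 and Ep400, at 0.23 to 0.24. Klf6 had no such close neighbour, since its nearest genes, Mir145, Pax3 and Slc2a4, lay at 0.67 to 0.68. Klf13 was nearest to Tnip1, Letm2 and Nfkb1 (0.35 to 0.45), Klf2 to Klhl40, Sox9 and Lgals4 (0.24 to 0.41), Klf5 to Med20, Tmem230 and Abcb1b (0.30 to 0.34), and Klf15 to Mab21l1, Btd and Fbxo30 (0.32 to 0.41). The closest neighbours were those of Klf7, Trim3, Atp13a3 and Gmppa (0.11 to 0.20), and of Klf10, Manbal, Srp14 and Osgepl1 (0.15 to 0.19). Klf3 was nearest to Nid1, Golga5 and Top2b (0.24 to 0.27). These distances are not scaled to the size of the changes, so they are not comparable between members that vary little and members that vary much. They describe 6 libraries and carry no test.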

How the data were processed

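RNA was from freshly isolated MuSCs, with ribosomal RNA removed before Ion Torrent sequencing. According to the methods, the authors aligned reads with STAR to GRCm38 and counted them per gene with featureCounts, leaving out reads on several genes or places. The deposited values are whole numbers that the authors made by dividing counts by 1 size factor per library and rounding, which makes their unit a score, here called normalized read count, with recovered size factors of 0.537 to 1.527. Because raw counts were not used here, limma 3.58.1 (R 4.3.3) with a mean-dependent prior variance was run on log2(value + 1), with all 6 libraries in 1 fit, instead of the count test of the study. Genes with a mean of at least 5 were tested (15915), and p-values were two-sided and adjusted after Benjamini and Hochberg. Fold changes are on the log2(value + 1) scale, which understates those of low genes. A call required adjusted p at or below 0.05 and an absolute log2 fold change of at least 1. Levels per kilobase used GENCODE M21 exons within the deposited gene span, and 98.5% of gene IDs matched that annotation. All 10 members were named, the 10 tested genes of the related list, and of the other lists the called genes, up to 5 in each direction, except for an item that is not reported here. Sirt6, Xist, Ddx3y, Pax7, Myf5, Fkbp5, Nr3c1, Rhob, Cldn5, Sox18, Cdh5, Tek and Gm20033 were given as checks or were singled out after their values were seen. The members and lists were chosen with earlier results of these data known. Alternatives were other pseudocounts, minimum means, scalings and prior variances, a replicate block, and each library left out. When a library was left out, its group had 1 library, which was assumed to vary like the other groups. The fits were tested on simulated data.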

Additional observations from a re-analysis of the deposited data

How the results depend on the processing

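Of the members' fold changes under alternatives other than leaving out a library, 303 kept their direction and side of the threshold, 13 lost a call, 7 gained a call and 4 changed sign; with a library left out these were 148, 17, 5 and 10. Pseudocounts of 0.1 and 5, upper quartile scaling and median of ratios scaling changed no count of called members. Without a minimum mean, 0 members were called higher and 2 lower in mdx against control and 1 higher in Sirt6mKO/mdx against mdx, while calls over all genes were 417 higher and 572 lower and 154 higher and 14 lower, in place of 1097 and 1168 and 895 and 405. With 1 prior variance for all genes the members' counts were 0, 1 and 0, and those over all genes 181 and 360 and 0 and 0. A minimum mean of 50, scaling to the total and a fit of only the 2 groups compared each called 1 member lower in Sirt6mKO/mdx against mdx, and scaling to the total called 3 lower against control. As each library was left out, calls ranged from 0 to 1 higher and 2 to 4 lower in mdx against control, from 1 to 3 higher and 0 to 1 lower in Sirt6mKO/mdx against mdx, and from 0 to 1 lower against control. Sign changes with scaling to the total were Klf7 against mdx (-0.16) and Klf3, Klf6 and Klf15 against control (-0.48, -0.47 and -0.53). With a library left out, Klf10 ran from -0.34 to 0.29 in Sirt6mKO/mdx against mdx, and against control Klf3 from -0.29 to 0.52, Klf6 from -0.48 to 0.74, Klf7 from -0.20 to 0.16 and Klf15 from -0.40 to 0.54. The cause was not tested.

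Replicate numbers share no stated animal or day, and deviations of same-numbered libraries correlated at -0.13 to 0.12, so they were not taken as pairs. A fit with the replicate number as a block called 1 member higher and 4 lower in mdx against control, 3 higher and 0 lower in Sirt6mKO/mdx against mdx, and 0 in either direction against control, the same numbers as without it. Depth limits Klf2 most, with 15 to 27 reads per library. With 2 libraries per group, a p that misses the threshold does not show equal levels.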
